A study of Mus musculus with 15 samples.

Results

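The genes described here are 40 genes of calcium entry, removal, storage and signalling, listed by symbol with earlier results of these data known. They were matched from Entrez GeneID to mouse symbol in a table of 27179 gene identifiers, and all 40 were among the 16816 genes that passed a filter on low counts. They comprise 5 pore subunits of high-voltage-activated calcium channels, 3 pore subunits of T-type channels, 4 beta subunits, 3 alpha2delta subunits, 4 plasma membrane pumps, 5 genes of the endoplasmic reticulum store, 3 sodium-calcium exchangers, 8 calmodulin-dependent kinases, 2 calmodulin genes and 3 calcineurin genes. The study sequenced RNA from the dissected medial prefrontal cortex (mPFC) of C57BL/6J mice in 15 libraries, which the labels divide by ABX treatment (the labels' abbreviation, commonly used for antibiotics) and by fear extinction, the training in which a learned fear response declines.

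The groups were ABX-treated after fear extinction (n = 4), untreated with ABX after fear extinction (n = 4), ABX-treated before fear extinction (n = 4) and untreated with ABX before fear extinction (n = 3, numbered 1, 3 and 4). The last is called non-ABX pre below, and the others likewise. All mice carried the same strain background, and no other treatment or genotype is given. The labels name dissected tissue as the source, while the extraction text speaks of sorted cells. Whether each library came from a separate mouse is not stated, so a p-value here reflects how libraries of a group vary, which may be technical variation. The RNA came from bulk tissue, in which fewer cells of a type and less RNA per cell cannot be told apart.

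Calcium enters neurons through voltage-gated channels, whose pore subunit is joined by beta and alpha2delta subunits that set its trafficking and gating. T-type channels open near the resting potential, while high-voltage types carry the calcium that drives transmitter release, dendritic spikes and signalling to the nucleus. Plasma membrane pumps and sodium-calcium exchangers export calcium, the endoplasmic reticulum pump stores it, and ryanodine and IP3 receptors release it again. Calcium bound to calmodulin activates CaM kinases and the phosphatase calcineurin, which in the cortex are best known for their part in synaptic plasticity and memory.

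Depth ran from 44254906 to 57929503 counts per library, and the 40 genes took 1.96% to 2.16% of the counts. Summed markers of excitatory neurons, interneurons, astrocytes, oligodendrocytes and microglia were at 216 CPM or more in every library, as tissue of cortex would hold. Summed blood markers were low, at most 8.47 CPM in ABX post replicate 1, and the haemoglobin gene Hba-a1 was at 0 in all 15 libraries. Levels are given as CPM, the usual measure of counts relative to library size, scaled by TMM factors between 0.969 and 1.03. Fold changes, standard errors (SE) and p-values come from 1 edgeR quasi-likelihood fit to all 15 libraries, with p adjusted over the 16816 genes by the Benjamini-Hochberg method.

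Set against each other per kb of exon, the 40 genes covered a wide range. Camk2a, the alpha subunit of CaM kinase II and a main protein of excitatory synapses, led with 660 ± 57.1 CPM per kb (SD over 15 libraries). Calm2 and Calm3, which encode the same calmodulin protein, had 658 ± 73.7 and 557 ± 73.4 CPM per kb. Over all 15 libraries Camk2a and Calm2 did not differ beyond their spread. The mean of Calm3 was below both by more than the SD of any of them, but the order of the calmodulin genes varied by group. Calm3 held 50.7% ± 2.03 of their CPM per kb in non-ABX post libraries (SD, n = 4). In ABX pre libraries it held 40.3% ± 5.62 (SD, n = 4). Next came Ppp3r1, the regulatory subunit of calcineurin, at 273 ± 36.8 CPM per kb, and Atp2a2, the store pump SERCA2, at 204 ± 18.1 CPM per kb.

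At the low end stood Itpr2, an IP3 receptor, at 1.70 ± 0.131 CPM per kb, Ryr3, a ryanodine receptor, at 2.39 ± 0.472 CPM per kb, and Cacna1c, the pore of the L-type channel CaV1.2, at 3.57 ± 0.615 CPM per kb. These lengths are the union of all annotated exons, so a gene with long alternative exons is placed lower than a transcript-based length would place it. Among pore subunits Cacna1a, the pore of P/Q-type channels, had the highest level per length, 23.0 ± 3.70 CPM per kb. The plasma membrane pumps ranged from Atp2b2 at 82.9 ± 13.7 CPM per kb to Atp2b3 at 33.3 ± 3.79 CPM per kb.

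**Figure D1:**
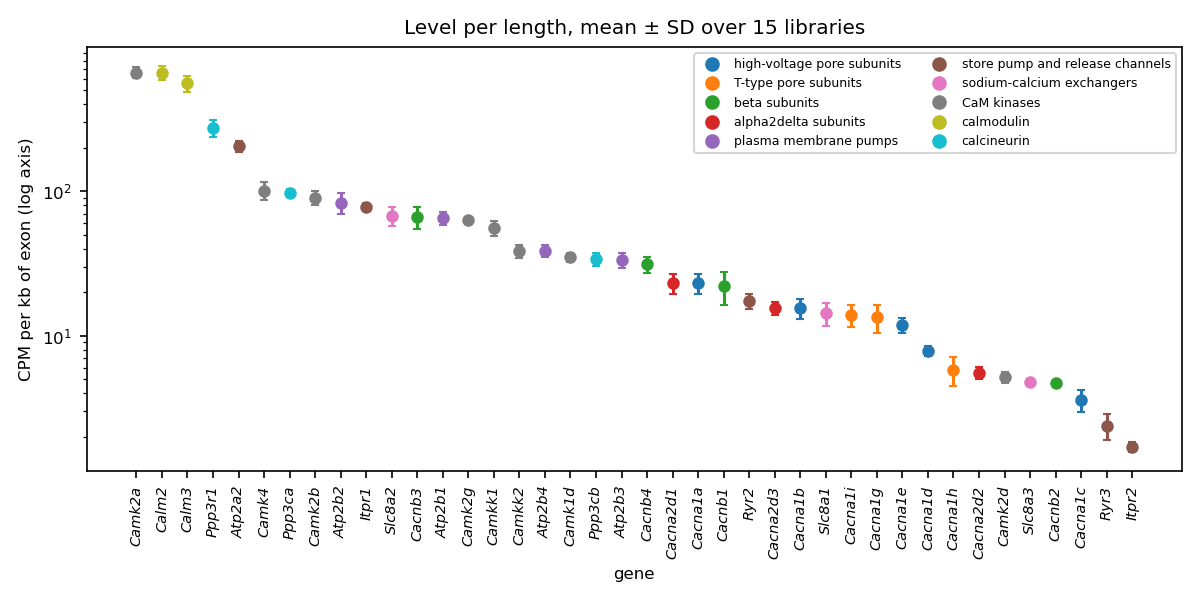
Level of each of the 40 genes in CPM per kb of exon on a log axis, as mean ± SD over 15 libraries, coloured by role. Camk2a, Calm2 and Calm3 stand at the top with 660, 658 and 557 CPM per kb, and Itpr2 is lowest with 1.70 CPM per kb.

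The first comparison addressed whether these genes differed with ABX treatment. Averaged over both stages, 3 of the 40 genes passed an adjusted p of 0.05, all lower with ABX: Cacna1i, a T-type pore subunit, Atp2b2, the plasma membrane pump PMCA2, and Camkk2, a kinase that activates other CaM kinases. Of all genes tested, 0.624% passed in either direction and 0.464% passed as lower. No other member passed. At an unadjusted p under 0.05 there were 17 members (42.5%), 15 of them lower with ABX, against 30.6% of all genes in either direction and 17.8% lower. DESeq2 called 10 members, all lower with ABX, when it called 11.8% of all genes. The count with voom and quality weights was 7, of which 6 were lower and Ryr3 was higher, when it called 5.36%. A fit with the replicate number as a block called 9 members and 3.96% of all genes. The median log2 fold change was -0.05, against 0.01 over all genes, and 25 of 40 genes (62.5%) were negative, against 47.5%. In mm10, the build named in the submitters' processing notes (GRCm38), RefSeq places Cacna1i at chr15:80287238-80398292, Atp2b2 at chr6:113743831-114042613 and Camkk2 at chr5:122718380-122779522.

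Atp2b2 was at 868, 876, 1014 and 904 CPM in ABX post libraries, against 1127, 1366, 1244 and 1156 CPM in non-ABX post libraries. Before extinction it was at 825, 915, 931 and 1034 CPM in ABX libraries, against 1022, 1354 and 1040 CPM in non-ABX libraries. The values run from replicate 1 to 4, or through replicates 1, 3 and 4 in the non-ABX pre group, here and below. The groups did not overlap after extinction, while before extinction the highest ABX library lay just above the lowest non-ABX library. Group means after extinction were 915 ± 67.7 CPM with ABX and 1223 ± 108 CPM without (SD, n = 4 each). Averaged over both stages, the log2 fold change was -0.36 (SE 0.07, adjusted p by edgeR = 0.0372).

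Camkk2 stood at 378, 373, 413 and 355 CPM in ABX post libraries, against 449, 488, 468 and 437 CPM in non-ABX post libraries. Its pre-extinction levels were 363, 397, 407 and 426 CPM with ABX, against 443, 498 and 443 CPM without. Every ABX library was below every non-ABX library at both stages. Group means after extinction were 380 ± 24.5 CPM with ABX and 460 ± 22.6 CPM without (SD, n = 4 each). The averaged log2 fold change was -0.25 (SE 0.05, adjusted p by edgeR = 0.0400), the smallest fold of the 3 genes.

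For Cacna1i the ABX post libraries had 111, 119, 136 and 120 CPM, against 149, 178, 163 and 156 CPM in non-ABX post libraries. Pre-extinction libraries had 100, 121, 113 and 135 CPM with ABX, against 137, 181 and 140 CPM without. Here too no ABX library reached a non-ABX library of its stage. Group means after extinction were 121 ± 10.4 CPM with ABX and 161 ± 12.3 CPM without (SD, n = 4 each). The averaged log2 fold change was -0.40 (SE 0.07, adjusted p by edgeR = 0.0372). With each library's trend on GC content removed it was -0.15 and did not pass (adjusted p by edgeR = 0.0565).

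These calls rest on all 15 libraries together. When each library was left out in turn, Cacna1i passed in 5 of 15 fits and Atp2b2 and Camkk2 in 4 of 15 fits each. All 3 passed without ABX pre replicate 4, non-ABX pre replicate 4, ABX post replicate 3 or non-ABX post replicate 4, with adjusted p-values from 0.00748 to 0.0465 by edgeR. In that order, these fits called 18.2%, 6.2%, 0.381% and 0.518% of all genes. Without non-ABX pre replicate 1, Cacna1i passed alone (adjusted p by edgeR = 0.0499), and 0.177% of all genes were called. Without any other library none of the 3 passed, and the adjusted p reached 0.132 for Atp2b2 and Cacna1i and 0.152 for Camkk2 without non-ABX pre replicate 3. The fits in which none passed called 0.0236% to 0.334% of all genes. The fold changes stayed negative in all 15 fits, between -0.39 and -0.28 for Atp2b2, between -0.27 and -0.21 for Camkk2 and between -0.43 and -0.32 for Cacna1i.

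**Figure D2:**
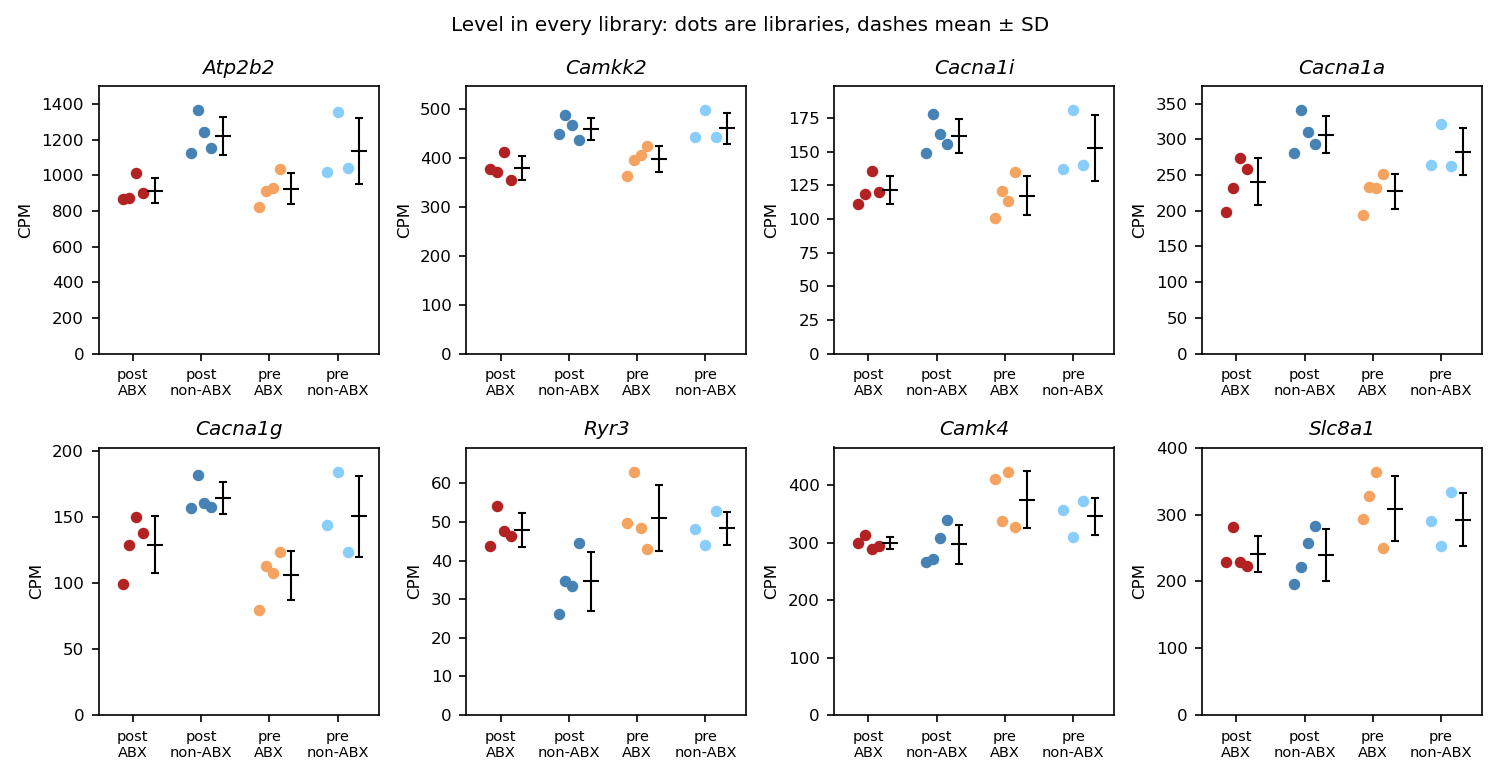
CPM of 8 genes in every library, with dots for libraries and dashes for the mean ± SD of a group (n = 4, 4, 4 and 3 from left to right). For Atp2b2 after extinction the ABX libraries reach at most 1014 CPM and the non-ABX libraries start at 1127 CPM. Camk4 in ABX libraries lies between 290 and 314 CPM after extinction, and between 327 and 424 CPM before it.

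The 250 bases before the RefSeq transcription start (GRCm38.p6) of the 3 genes that passed are shown for the letters of their upstream regions, since they moved the same way. Capitals mark the matches to 5 motifs searched on both strands: the full cAMP response element TGACGTCA, its core TGACG, the GC box GGGCGG, the E-box CACGTG and the TATA sequence TATAAA. A full element also holds the core. Cacna1i lies on the plus strand and its window is chr15:80286988-80287237. Atp2b2 lies on the minus strand with window chr6:114042081-114042330, before the first of 3 listed starts and inside the span of a longer form. Camkk2 lies on the minus strand with window chr5:122779411-122779660, whose bases nearest the start, the marked match among them, lie inside the gene span given above.
Cacna1i promoter: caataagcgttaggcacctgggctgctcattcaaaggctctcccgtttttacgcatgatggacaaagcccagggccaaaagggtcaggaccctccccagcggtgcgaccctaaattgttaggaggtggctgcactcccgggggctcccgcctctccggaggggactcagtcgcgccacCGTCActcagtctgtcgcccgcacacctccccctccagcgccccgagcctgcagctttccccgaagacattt
Atp2b2 promoter: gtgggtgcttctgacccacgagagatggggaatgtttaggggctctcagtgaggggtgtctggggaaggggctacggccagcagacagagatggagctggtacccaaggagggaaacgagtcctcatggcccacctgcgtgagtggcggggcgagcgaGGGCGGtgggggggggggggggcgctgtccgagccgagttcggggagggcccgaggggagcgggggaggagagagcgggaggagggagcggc
Camkk2 promoter: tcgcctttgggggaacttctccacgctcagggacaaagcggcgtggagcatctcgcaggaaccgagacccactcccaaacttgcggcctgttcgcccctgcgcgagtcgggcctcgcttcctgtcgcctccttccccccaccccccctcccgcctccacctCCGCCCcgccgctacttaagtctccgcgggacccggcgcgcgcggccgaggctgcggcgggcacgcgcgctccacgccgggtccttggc

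The Cacna1i window held 1 match to TGACG on the minus strand, and the Atp2b2 and Camkk2 windows held 1 match to GGGCGG each. None of these 3 windows held TGACGTCA, CACGTG or TATAAA. Of the 28 members with a promoter entry, 18 (64.3%) held GGGCGG, against 55.9% of the 12772 promoters of genes tested. The core TGACG was in 8 of 28 (28.6%) against 25.1%, and TATAAA in 1 of 28 (3.57%) against 6.91%. TGACGTCA and CACGTG were in 0 of 28, against 2.51% and 8.09%. The member promoters had a median GC content of 69.4%, against 59.2% over the tested promoters. A match describes letters and not a bound site.

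After extinction alone, edgeR called 0 of the 40 genes between ABX and non-ABX libraries, against 0.0178% of all genes. At an unadjusted p under 0.05 there were 8 members (20%), against 13.3% of all genes, and 7 of them were lower with ABX, against 6.83%. DESeq2 called 3 members (Atp2b2, Camkk2 and Cacna1i), all lower with ABX, and 1.08% of all genes. Voom with quality weights called the same 3 as lower, Ryr3 as higher, and 1.82% of all genes. The median log2 fold change of the members was -0.07, against 0.01 over all genes, and 25 of 40 (62.5%) were negative, against 48.4%. In 8 members (20%) the libraries did not overlap between groups, against 11.1% of all genes, and each of the 8 was lower with ABX, a direction that 6.36% of all genes showed.

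Before extinction edgeR again called 0 of 40, against 0.00595% of all genes, and both DESeq2 and voom called 0. At an unadjusted p under 0.05 there were 11 members (27.5%), all lower with ABX, against 16% of all genes in either direction and 11.4% lower. The all-gene count of 2686 depended on single libraries. It was 436 without non-ABX pre replicate 3, 930 without ABX pre replicate 1 and 4910 without ABX pre replicate 4. Without both libraries of extreme GC slope it was 303. The share of members in those fits is not given here. The median log2 fold change of the members was -0.04, against 0.01 over all genes. Libraries did not overlap between groups in 9 members (22.5%), all lower with ABX, against 6.76% of all genes in either direction and 3.14% lower. Non-overlap has a lower bar here, since the non-ABX group had 3 libraries.

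Cacna1a, Cacna1g, Cacna1i and Camkk2 had every ABX library below every non-ABX library at both stages. This is 10% of the members, against 1.4% of all genes in either direction and 0.773% lower. With the GC trend of each library removed, Cacna1a, Cacna1g and Cacna1i no longer did so, and the members that did were Atp2b2, Camk2b and Camkk2 (7.5%), against 1.65% of all genes in either direction and 1.19% lower. The stages used separate libraries. The sign of the ABX difference was the same at both in 32 of 40 members (80%), against 76.9% of all genes, and across the 40 genes Pearson's r between the stage-wise differences was 0.788, against 0.578 over all genes. Across the 40 genes r between GC content and the ABX difference was -0.607 after extinction and -0.840 before it. Over all genes with a GC value it was -0.451 and -0.623. The part of GC content in the likeness of the stages was not tested. Genes are not independent replicates and the libraries of a group are shared by all of them, so these are descriptions.

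The test of the ABX difference after extinction minus that before it called 0 of the 40 genes and 0% of all genes by edgeR. At an unadjusted p under 0.05 it gave 0 members, against 2.06% of all genes, and DESeq2 and voom also called 0 members. The smallest p was that of Ryr3, a release channel of the store. Ryr3 was at 43.8, 54.1, 47.8 and 46.3 CPM in ABX post libraries, against 26.1, 34.6, 33.4 and 44.7 CPM in non-ABX post libraries. Before extinction its levels were 49.6, 63.0, 48.5 and 42.9 CPM with ABX, against 48.1, 44.1 and 52.7 CPM without. The non-ABX post group held the 3 lowest libraries of all 15, and its highest library overlapped the ABX post group. The log2 difference of differences was 0.39 (SE 0.20), with an unadjusted p = 0.0730 from the edgeR fit.

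**Figure D3:**
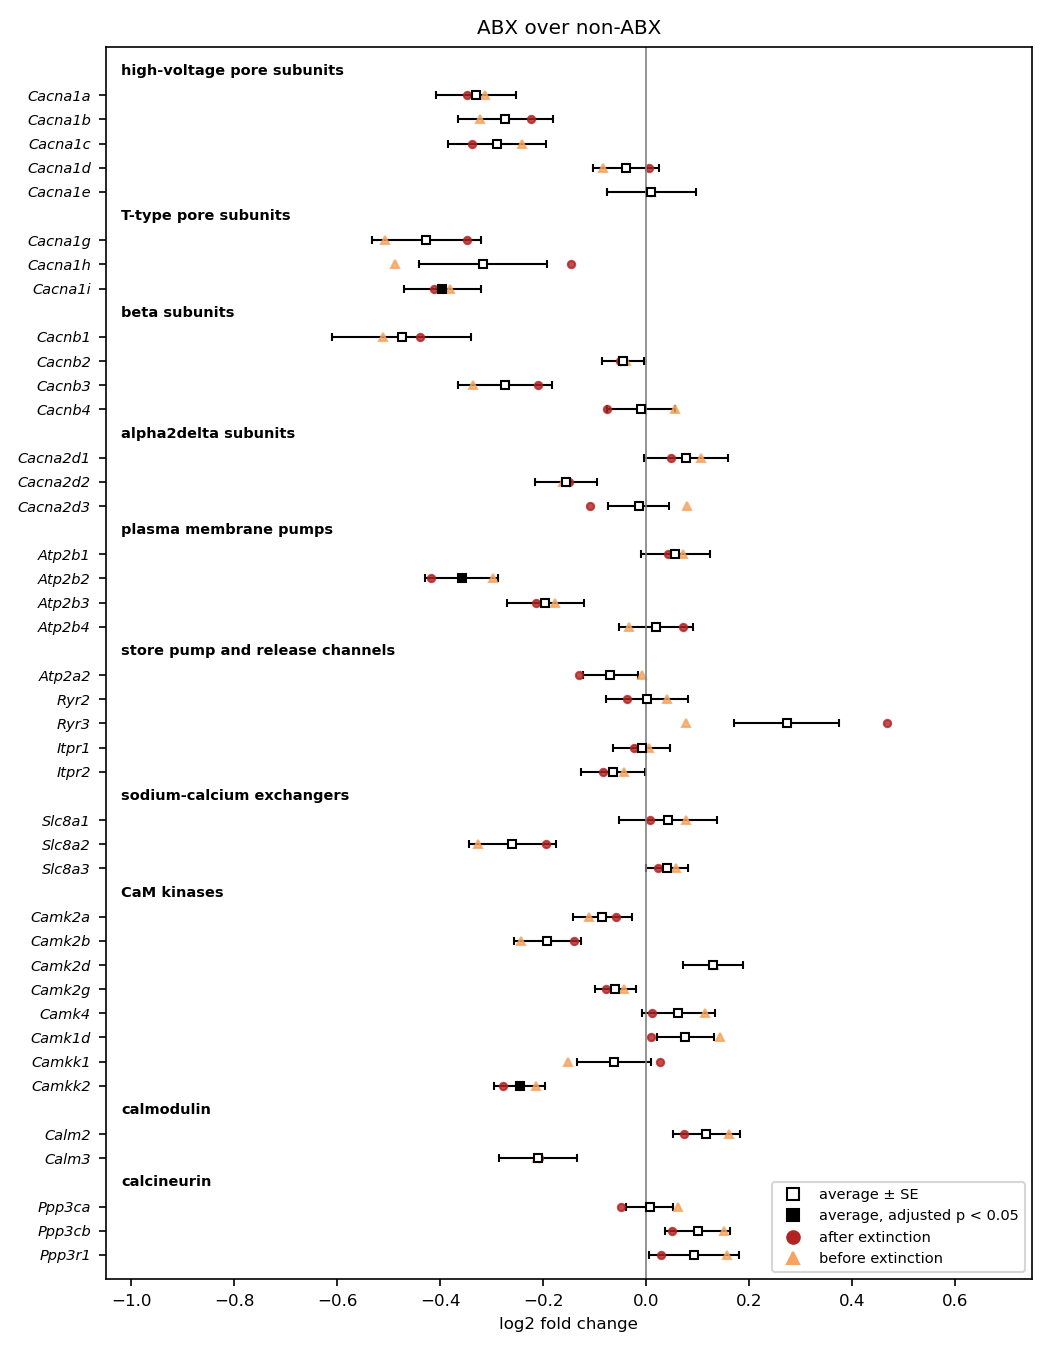
Log2 fold change of each gene, ABX over non-ABX, grouped by role. Squares give the average over both stages ± SE, filled at an adjusted p under 0.05, circles the comparison after extinction and triangles that before it. The 3 filled squares are Cacna1i at -0.40, Atp2b2 at -0.36 and Camkk2 at -0.25.

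Among high-voltage pore subunits, 4 of 5 had a negative averaged ABX difference and none passed. Cacna1a was at 198, 232, 274 and 258 CPM in ABX post libraries, against 281, 341, 310 and 294 CPM in non-ABX post libraries. Before extinction it was at 194, 233, 232 and 252 CPM in ABX libraries, against 265, 321 and 263 CPM in non-ABX libraries. The groups did not overlap at either stage, and the averaged log2 fold change of -0.33 (SE 0.08) came with an edgeR adjusted p = 0.0552. Cacna1c had 49.6, 75.4, 80.8 and 76.1 CPM in ABX post libraries, against 71.4, 94.5, 94.2 and 96.2 CPM in non-ABX post libraries. In pre-extinction libraries it had 58.3, 69.2, 66.5 and 69.6 CPM with ABX, against 75.7, 83.8 and 74.2 CPM without. Its groups overlapped after extinction through non-ABX post replicate 1, and the averaged log2 fold change was -0.29 (edgeR adjusted p = 0.0786). Cacna1b, the N-type pore, had -0.27 (adjusted p = 0.0833), while Cacna1d, an L-type pore, and Cacna1e, the R-type pore, had -0.04 and 0.01.

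All 3 T-type pore subunits had negative ABX differences at both stages, although Cacna1h after extinction was at 0.06 with the GC trend removed. Cacna1g stood at 98.8, 129, 150 and 138 CPM in ABX post libraries, against 157, 182, 160 and 158 CPM in non-ABX post libraries. Before extinction Cacna1g stood at 79.5, 113, 107 and 123 CPM with ABX, against 143, 184 and 123 CPM without. The 2 pre-extinction groups nearly touched, and the averaged log2 fold change was -0.43 (SE 0.11, adjusted p by edgeR = 0.0609). Cacna1h had 41.6, 56.3, 70.0 and 67.2 CPM in ABX post libraries, against 61.8, 67.9, 69.2 and 61.4 CPM in non-ABX post libraries. Its pre-extinction levels were 31.0, 49.3, 42.0 and 49.9 CPM with ABX, against 54.3, 76.4 and 50.5 CPM without. For Cacna1h the post-extinction groups overlapped and the averaged log2 fold change of -0.32 had an edgeR adjusted p = 0.110.

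Among beta subunits, the cytoplasmic partners of the pore, Cacnb1 had the largest averaged ABX difference of the 40 genes, -0.47 (SE 0.14), without passing (edgeR adjusted p = 0.0681). It was also the most variable gene, with a highest library 2.96 times its lowest. Cacnb3, the beta subunit of highest level per length, was at 236, 234, 286 and 282 CPM in ABX post libraries, against 311, 328, 292 and 271 CPM in non-ABX post libraries. Before extinction Cacnb3 was at 187, 229, 208 and 271 CPM with ABX, against 255, 349 and 244 CPM without. The groups overlapped at both stages (averaged log2 fold change -0.27, adjusted p by edgeR = 0.0810). Cacnb2 and Cacnb4 had -0.04 and -0.01. With the GC trend removed and the replicate block added, Cacnb4 was called lower with ABX, in a fit that called 12.5% of all genes.

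The alpha2delta subunits, extracellular partners of the pore of which the first is a binding site of gabapentin, differed little with ABX. Cacna2d1, Cacna2d2 and Cacna2d3 had averaged log2 fold changes of 0.08, -0.16 and -0.01, with adjusted p-values from 0.109 to 0.886 in the edgeR fit.

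Of the 4 plasma membrane pumps, Atp2b2 alone passed the test. As a share of the family's CPM per kb, Atp2b2 made up 35.5% ± 2.61 in ABX post libraries and 42.0% ± 2.43 in non-ABX post libraries (SD, n = 4 each), with ranges of 31.9% to 37.8% and 39.0% to 44.9% that did not overlap. Before extinction it made up 34.4% ± 2.85 (n = 4) in ABX libraries and 38.8% ± 4.85 (n = 3) in non-ABX libraries, and these ranges overlapped. Atp2b1, the widely expressed pump, and Atp2b4 had averaged log2 fold changes of 0.06 and 0.02, and Atp2b3 had -0.20 (edgeR adjusted p = 0.107). A test of the difference between the pumps was not run.

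Of the sodium-calcium exchangers, Slc8a2 was the most abundant per length. It was at 298, 343, 382 and 351 CPM in ABX post libraries, against 385, 411, 392 and 385 CPM in non-ABX post libraries. Pre-extinction Slc8a2 was at 248, 344, 284 and 346 CPM with ABX, against 347, 464 and 338 CPM without. Only the post-extinction groups were apart, and the averaged log2 fold change was -0.26 (edgeR adjusted p = 0.0781). Slc8a3 was the most even of the 40 genes, with a highest library 1.12 times its lowest and an averaged log2 fold change of 0.04.

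Store genes showed small ABX differences apart from Ryr3. The pump Atp2a2 was at 1121, 1204, 1139 and 1037 CPM in ABX post libraries, against 1112, 1279, 1252 and 1285 CPM in non-ABX post libraries. It was at 1239, 1344, 1446 and 1199 CPM in ABX pre libraries, against 1327, 1233 and 1381 CPM in non-ABX pre libraries. The groups overlapped at both stages. Ryr2, Itpr1 and Itpr2, the other release channels, had averaged log2 fold changes between -0.06 and 0.00, and Ryr3 had 0.27 (SE 0.10, adjusted p by edgeR = 0.102).

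CaM kinases other than Camkk2 did not pass. Camk2a was at 4671, 4854, 5245 and 5405 CPM in ABX post libraries, against 5550, 5418, 5215 and 4834 CPM in non-ABX post libraries. Before extinction Camk2a was at 4533, 4369, 4184 and 5009 CPM with ABX, against 4750, 5378 and 4524 CPM without. The groups overlapped at both stages, with an averaged log2 fold change of -0.08. Camk2a held 81.1% of the CPM per kb of the 4 CaM kinase II genes in ABX post libraries and 80.6% in non-ABX post libraries, and 80.5% and 80.0% in ABX pre and non-ABX pre libraries. Camk2b, the beta subunit of the same kinase, had an averaged log2 fold change of -0.19 (edgeR adjusted p = 0.0827) and Camkk1, the close relative of Camkk2, had -0.06. The remaining kinases had 0.13 (Camk2d), -0.06 (Camk2g), 0.06 (Camk4) and 0.08 (Camk1d).

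The calmodulin genes had averaged ABX differences of opposite sign, 0.12 for Calm2 and -0.21 for Calm3 (edgeR adjusted p = 0.228 and 0.0952). Calm2 was at 1069, 984, 870 and 818 CPM in ABX post libraries, against 910, 890, 858 and 897 CPM in non-ABX post libraries. It was at 1125, 1042, 1194 and 935 CPM in ABX pre libraries, against 966, 878 and 1038 CPM in non-ABX pre libraries. These groups overlapped. How reads that fit several calmodulin copies were counted is not given, so the split between the calmodulin genes is uncertain. The kit does not keep strand, so reads of a gene and of an overlapping antisense gene cannot be told apart.

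Calcineurin genes had averaged ABX differences of 0.01 for the catalytic subunit Ppp3ca, 0.10 for the catalytic subunit Ppp3cb and 0.09 for Ppp3r1, and all 3 were negative at both stages with the GC trend removed. Ppp3r1 was at 946, 898, 728 and 815 CPM in ABX post libraries, against 888, 712, 835 and 882 CPM in non-ABX post libraries. Its pre-extinction levels were 1073, 885, 1112 and 810 CPM with ABX, against 895, 720 and 996 CPM without. The ranges overlapped widely at both stages.

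The size of the ABX difference followed the GC content of the transcript. The 20 members above the median GC content of 49.6% had a median averaged log2 fold change of -0.25, and 19 of them were negative. The 20 at or below it had a median of 0.03, and 6 were negative. Over all tested genes on the same sides of that value the medians were -0.11 and 0.09. Pearson's r between GC content and the averaged fold change was -0.773 across the 40 genes and -0.603 across 15326 tested genes with a GC value, which share the same libraries. The slope of a library's levels on GC content ran from -0.41 log2 units per 10 points of GC in ABX pre replicate 1 to 0.32 in non-ABX pre replicate 3.

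With the GC trend of each library removed, the medians of the high-GC and low-GC members were -0.11 and -0.05, and 34 of 40 members were negative, against 56.6% of all genes, whose median was -0.02. Atp2b2 was then at -0.34 (edgeR adjusted p = 0.0115) and Camkk2 at -0.20 (adjusted p = 0.0130). Cacna1i was at -0.15 and no longer passed (adjusted p = 0.0565), while Cacna1g passed at -0.22 (adjusted p = 0.0477). This fit called 3 members and 3.71% of all genes. After extinction alone it called Atp2b2 and Camkk2, at -0.41 and -0.25 (adjusted p = 0.0393 and 0.0455), and 0.268% of all genes. With the replicate block added, the averaged comparison called 12.5% of all genes and 11 members, all lower with ABX, including Cacnb4 and Atp2a2. Cacna1a moved to -0.12 and Cacnb3 to 0.03. The part of GC content in the ABX differences was not tested.

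**Figure D4:**
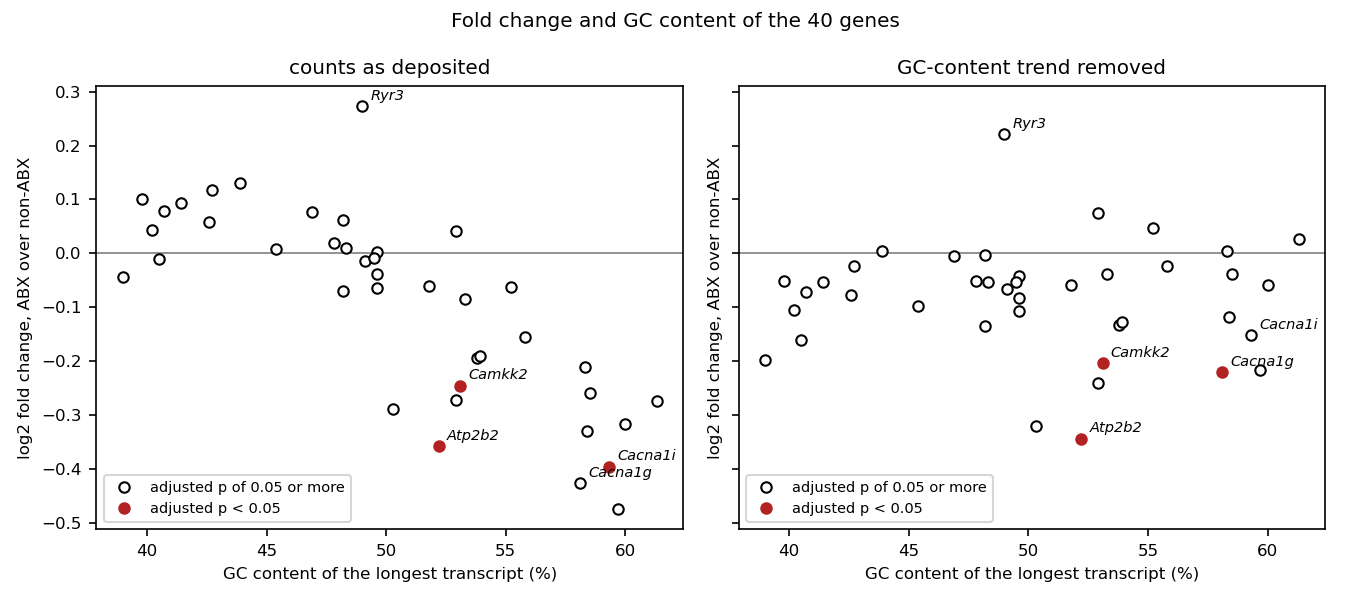
Averaged log2 fold change, ABX over non-ABX, against GC content of the longest transcript for the 40 genes, on the left from the counts as deposited and on the right with each library's GC trend removed. Filled points passed an adjusted p of 0.05. On the left the points fall with GC content (r = -0.773), and Atp2b2 and Camkk2, at -0.34 and -0.20 on the right, are filled in both panels.

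Some sums of cell type markers also differed with ABX. The sums were not tested and are given without removal of the GC trend. Excitatory and pericyte sums did not overlap after extinction, and endothelial sums did not overlap before it, all lower with ABX. Choroid plexus sums did not overlap before extinction and were higher with ABX, at 5.49 to 7.72 CPM against 4.72 to 5.45 CPM. Of all single genes, 11.1% did not overlap after extinction and 6.76% before it. The 7 excitatory neuron markers summed to 1955 to 2136 CPM in ABX post libraries against 2167 to 2354 CPM in non-ABX post libraries, and to 1620 to 2105 CPM in ABX pre against 1944 to 2409 CPM in non-ABX pre libraries. The 6 endothelial markers summed to 125.8 to 178.6 CPM in ABX post against 176 to 187 CPM in non-ABX post libraries, and to 125.8 to 173 CPM in ABX pre against 185 to 205 CPM in non-ABX pre libraries. The 6 pericyte and smooth muscle markers summed to 60.7 to 84.1 CPM in ABX post against 86.3 to 98.6 CPM in non-ABX post libraries, and to 63.2 to 86.0 CPM in ABX pre against 79.7 to 98.8 CPM in non-ABX pre libraries. All 6 endothelial markers had a negative averaged difference, as had 5 of 6 pericyte and smooth muscle markers and 5 of 7 excitatory markers. None of these markers was at 0 in all libraries. The 6 interneuron markers summed to 763 to 868 CPM in ABX post against 786 to 817 CPM in non-ABX post libraries, and to 774 to 899.7 CPM in ABX pre against 792 to 834 CPM in non-ABX pre libraries. Blood markers had the other direction, with all 4 tested markers positive and a median averaged log2 fold change of 1.24. They summed to 0.967 to 8.47 CPM in ABX post against 0.316 to 2.38 CPM in non-ABX post libraries, and to 0.436 to 2.54 CPM in ABX pre against 0.465 to 0.679 CPM in non-ABX pre libraries. The median was 0.25 for choroid plexus markers (1 of 4 tested negative), which summed to at most 18.3 CPM, and 0.09 for striatal projection neuron markers (1 of 6 negative). It was 0.05 for astrocyte, -0.04 for oligodendrocyte and 0.01 for microglia markers. The part of cell composition in the differences of Atp2b2, Camkk2 and Cacna1i was not tested.

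Extinction stage gave no call among the 40 genes. Averaged over ABX and non-ABX libraries, edgeR called 0 members between post-extinction and pre-extinction libraries, against 0.963% of all genes. At an unadjusted p under 0.05 there were 13 members (32.5%), 10 of them lower after extinction, against 20.4% of all genes in either direction and 11.8% lower. DESeq2 called 4 members, all lower after extinction (Cacnb4, Cacna2d1, Slc8a1 and Camk4), and 4.19% of all genes. Voom with quality weights called 25, of which 13 were lower, when it called 37.8% of all genes. The stage comparisons share libraries with the ABX comparisons, so the values are given side by side and not set against each other.

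Camk4, a kinase of the neuronal nucleus that acts on the transcription factor CREB, had the smallest p of the averaged comparison. It was at 299, 314, 290 and 295 CPM in ABX post libraries, against 411, 338, 424 and 327 CPM in ABX pre libraries. In non-ABX libraries it was at 267, 272, 309 and 340 CPM after extinction, against 357, 310 and 372 CPM before it. The ABX groups did not overlap and the non-ABX groups did. The averaged log2 fold change was -0.27 (SE 0.07, adjusted p by edgeR = 0.0725), and with the GC trend removed it was -0.23 (adjusted p = 0.0433), in a fit that called 1.31% of all genes.

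Slc8a1, the exchanger NCX1, was at 230, 281, 230 and 223 CPM in ABX post libraries, against 294, 329, 364 and 250 CPM in ABX pre libraries. Without ABX it was at 196, 222, 258 and 283 CPM after extinction, against 291, 254 and 334 CPM before. The groups overlapped in both arms (averaged log2 fold change -0.32, adjusted p by edgeR = 0.104). Cacnb4, a beta subunit mutated in lethargic mice, was at 247, 272, 252 and 234 CPM in ABX post libraries, against 312, 307, 354 and 269 CPM in ABX pre libraries. In non-ABX libraries Cacnb4 was at 229, 257, 277 and 296 CPM after extinction, against 301, 274 and 322 CPM before. The overlap was slight in ABX libraries and wider in non-ABX libraries (averaged log2 fold change -0.24, adjusted p by edgeR = 0.0922).

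Among alpha2delta subunits, Cacna2d1 was at 259, 302, 256 and 248 CPM in ABX post libraries, against 347, 307, 386 and 264 CPM in ABX pre libraries. It was at 248, 232, 263 and 285 CPM in non-ABX post libraries, against 315, 259 and 333 CPM in non-ABX pre libraries. Ranges overlapped in both arms (averaged log2 fold change -0.26, adjusted p by edgeR = 0.117). Cacna2d3 was at 139, 120, 123 and 107 CPM in ABX post libraries, against 156, 140, 158 and 138 CPM in ABX pre libraries. It was at 126, 145, 130 and 126 CPM in non-ABX post libraries, against 146, 128 and 145 CPM in non-ABX pre libraries. The ABX groups nearly separated and the non-ABX groups overlapped (averaged log2 fold change -0.18, adjusted p by edgeR = 0.132).

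In ABX libraries alone edgeR called 0 members between stages, against 0.0951% of all genes, and 10 members (25%) had an unadjusted p under 0.05, against 16.6%. DESeq2 called 0 and voom 3, against 2.77% of all genes by voom. Libraries did not overlap in 2 members (5%), Camk4 and Ppp3ca, both lower after extinction, against 5.47% of all genes in either direction and 2.78% lower. In non-ABX libraries edgeR called 0 members and 0% of all genes, 2 members (5%) had an unadjusted p under 0.05 against 4.94%, DESeq2 called 0 and voom 7, against 19% of all genes by voom. No member had stages that did not overlap there, against 5.91% of all genes. The largest fold change between stages in ABX libraries was that of Cacna1h, 0.45 (edgeR adjusted p = 0.235), and that in non-ABX libraries was Ryr3, -0.48 (adjusted p = 0.783).

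By role, the averaged stage differences had medians of 0.04 for high-voltage pores, 0.21 for T-type pores, 0.09 for beta subunits, -0.18 for alpha2delta subunits and -0.03 for plasma membrane pumps. The medians were -0.15 for store genes, 0.02 for exchangers, 0.03 for CaM kinases, -0.01 for calmodulin and -0.12 for calcineurin, and 0.00 over all genes. None of these genes passed. All 3 T-type pores had positive averaged differences and all 3 calcineurin genes negative ones, but with the GC trend removed Cacna1i was at -0.10 and the calcineurin genes were between 0.01 and 0.03. The averaged differences of the 40 genes ran from -0.32 for Slc8a1 to 0.28 for Cacna1h, and Atp2b2, Camkk2 and Cacna1i had 0.04, -0.04 and 0.07.

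Stage differences also followed GC content, in the opposite direction. The 20 members above the median GC content had a median averaged log2 fold change of 0.10, and the 20 others had -0.14, with r = 0.761 across the 40 genes and 0.578 across 15326 genes. With the GC trend removed, the medians were -0.01 and -0.04. The part of GC content in the stage differences of Camk4, Slc8a1 and Cacnb4 was not tested.

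**Figure D5:**
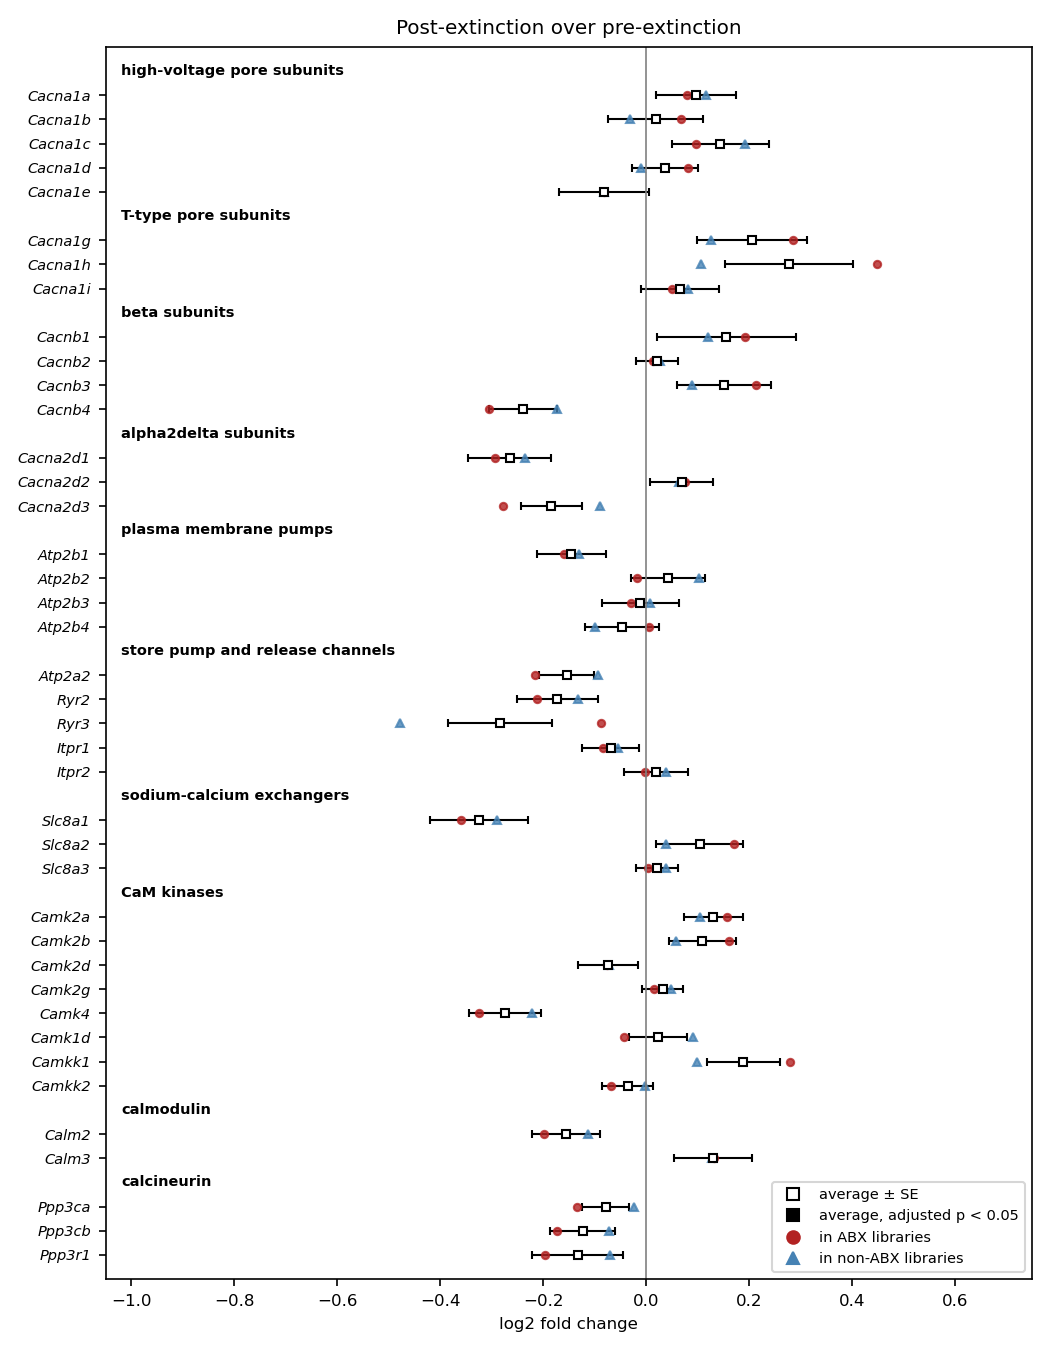
Log2 fold change of each gene, post-extinction over pre-extinction, grouped by role. Squares give the average over ABX and non-ABX libraries ± SE, circles the ABX libraries and triangles the non-ABX libraries. No square is filled, and the lowest averages are those of Slc8a1 at -0.32, Ryr3 at -0.28 and Camk4 at -0.27.

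A list of 81 other calcium genes was set beside the members, and all 81 were tested. In the averaged ABX comparison 3 passed, all lower with ABX. Cacng2, the stargazin gene that traffics AMPA receptors, averaged 44.6 ± 3.46 CPM in ABX post and 58.5 ± 4.80 CPM in non-ABX post libraries (SD, n = 4 each), with a log2 fold change of -0.38 (SE 0.07, adjusted p by edgeR = 0.0372). Atp2a3, the store pump SERCA3, had -0.49 (SE 0.10, adjusted p = 0.0372), and Itpr3, an IP3 receptor, had -0.63 (SE 0.14, adjusted p = 0.0499). Atp2a3 and Itpr3 were at low levels, 5.67 ± 0.547 and 5.19 ± 1.07 CPM in ABX post libraries and 8.30 ± 0.399 and 8.11 ± 0.583 CPM in non-ABX post libraries (SD, n = 4 each).

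Of those 81 genes, 49 (60.5%) had a negative averaged ABX difference, against 47.5% of all genes. Their median was -0.05, the same as that of the 40 members. In single stages edgeR called none of the 81, and 10 (12.3%) had an unadjusted p under 0.05 after extinction, against 13.3% of all genes, and 15 (18.5%) before, against 16%. The smallest p-values belonged to Atp2a3, Slc24a3 and Cacng2 after extinction, with log2 fold changes of -0.55, -0.21 and -0.39, and to Hpcal1, Cacng2 and Itpr3 before it, with -0.35, -0.36 and -0.62. Slc24a3 is a potassium-dependent sodium-calcium exchanger and Hpcal1 a neuronal calcium sensor. Slc24a2, of the same exchanger family as Slc24a3, was the only 1 of the 81 called in the averaged stage comparison, against 0.963% of all genes. It was lower after extinction at -0.28 (SE 0.06, adjusted p by edgeR = 0.0493).

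By list, the averaged ABX medians were -0.14 for 10 other channel subunits, -0.05 for 18 store entry and other store genes, -0.06 for 8 mitochondrial uptake genes and -0.03 for 4 potassium-dependent exchangers. They were 0.03 for 14 calcium buffers and sensors, -0.02 for 9 other calmodulin kinases and regulators, -0.01 for 11 calcineurin partners and targets and -0.12 for 8 genes of calcium-regulated transcription. The called genes lie in the first list (Cacng2) and the second (Atp2a3 and Itpr3). Over all genes the median was 0.01.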

How the data were processed

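RNA from dissected mPFC was made into libraries with a SMARTer kit for low input (V4), which does not keep strand, per the labels' protocols. The deposited table holds raw whole-number counts per Entrez gene, made by the authors. CASAVA 1.8.2, STAR 2.3.0 and build mm10 are named in the submitters' processing notes, and no counting program or annotation is given there. Total depth was 44254906 to 57929503 counts per library, and each value carries counting error as well as the spread between libraries. Of 27179 identifiers, 25275 (99.7% of counts) matched a RefSeq symbol.

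The counts were filtered with filterByExpr (minimum count 10, total 15), scaled by TMM and fitted in edgeR 4.0.16 (R 4.3.3) by glmQLFit and glmQLFTest with 4 group means. 7 contrasts were tested two-sided, each adjusted over 16816 genes by the Benjamini-Hochberg method. CPM values are from the TMM-scaled library sizes. The fit was tested on simulated data for the ABX comparison after extinction, where it recovered 200 of 200 genes changed by a log2 value of 1 and made 10 false calls. The simulation used the same dispersion for every gene and held no GC trend. Smaller changes, such as those of the members, were not simulated. Exon length and GC content came from GENCODE M21 (GRCm38), and 91.2% of tested genes had a GC value. Promoters were from RefSeq GRCm38.p6.

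Alternatives were DESeq2 1.42.0, voom with quality weights (limma 3.58.1), RLE scaling, no filter, a stricter filter (mean of 1 CPM), the compared groups alone, a replicate block, a GC trend removed by a spline with 5 degrees of freedom, both together, and each library left out. The omission of both ABX replicate 1 libraries, and of the libraries with the extreme GC slopes, was chosen after seeing the data. Whether replicate numbers pair the libraries was not tested, and the main fit does not use them.

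Values in every library are given for the members of smallest p in each comparison and for the member of highest level per length in each role group. The members, lists and this rule were chosen with earlier results of these data known.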

Additional observations from a re-analysis of the deposited data

Results flagged for a closer look

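In groups of 4 libraries, the highest or lowest value stood apart from the other 3 in 7 of 87 groups examined, and chance gives about 1 in 20. Cacna1c was lowest in non-ABX post replicate 1, at 71.4 CPM, with the other 3 libraries between 94.2 and 96.2 CPM. Cacna1g was highest in non-ABX post replicate 2, at 182 CPM, with the others between 157 and 160 CPM. Slc8a1 was highest in ABX post replicate 2, at 281 CPM, with the others between 223 and 229.9 CPM. The summed blood markers were highest in ABX post replicate 1 at 8.47 CPM (the others at 0.967 CPM in replicate 2, 1.27 CPM in replicate 3 and under 2 CPM in replicate 4), in non-ABX post replicate 2 at 2.38 CPM (others at most 0.484 CPM) and in ABX pre replicate 1 at 2.54 CPM (others at most 0.585 CPM). Choroid plexus markers summed to 18.3 CPM in ABX post replicate 1, with the others between 5.64 and 6.69 CPM. Leaving out both ABX replicate 1 libraries left Atp2b2, Camkk2 and Cacna1i at averaged ABX fold changes of -0.32, -0.22 and -0.34 on the log2 scale. That fit called 0 members and 0.0656% of all genes by edgeR.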

How the results depend on the processing

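The 3 averaged ABX calls were made again with RLE scaling, no filter and the stricter filter. That count was 10 with DESeq2, 7 with voom, 3 with the GC trend removed, and 0 to 13 when libraries were left out singly. The 13, of which 11 were lower with ABX, came without ABX pre replicate 4, where 18.2% of all genes were called. In 10 of the 15 fits with 1 library left out the count was 0, and 0.0236% to 0.334% of all genes were called. It was also 0 in each pair of omissions chosen after seeing the data, at 0.0656% and 0.0236% of all genes. Members called for ABX after extinction numbered 3 with DESeq2, 4 with voom, 2 with the GC trend removed and 6 with the replicate block and the GC trend removed together, when 3.08% of all genes were called. Of those 6, 5 were lower with ABX, Cacnb4 and Atp2a2 among them, and Ryr3 was higher. For stage without ABX voom called 7, and for stage with ABX 3. For the averaged stage comparison the count was 4 with DESeq2, 25 with voom, 1 with the GC trend removed, 2 with the block and GC removal (2.87% of all genes), 0 to 6 with libraries left out singly and 4 without the GC-slope extremes (7.2% of all genes). The 6 came without non-ABX pre replicate 3, where 13.3% of all genes were called. With the GC trend removed, members without overlap numbered 5 (12.5%) for ABX after extinction, against 11.1% of all genes, and 3 (7.5%) for stage without ABX, against 8.39%. Under RLE scaling they numbered 4 (10%) for stage with ABX, against 5.41%. The 22 pairs of gene and comparison recomputed under the alternatives kept their sign in each, but other members did not: with the GC trend removed the averaged ABX difference of Cacnb3 was 0.03 and the averaged stage difference of Cacna1i -0.10. The causes were not tested.

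With the replicate number as a block the averaged ABX count was 9, and 11 with the GC trend removed as well. Residual correlations between libraries of the same number ran from -0.491 to 0.374. They were not set against libraries of different numbers, so whether the numbers pair the libraries was not tested. No limit set by depth was tested for the members.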
